A study of Mus musculus with 9 samples.

Results

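Mast cells are tissue-resident granulocytes that sit near blood vessels and nerves in the skin. Their granules hold proteases bound to the proteoglycan serglycin and its heparin chains, together with histamine, and these are released when IgE bound to the high-affinity receptor is cross-linked. Survival of the cells in tissue depends on signals of stem cell factor through the receptor KIT. The 10 genes described here were listed by name as mast cell proteases, receptors and related genes and were found in the count tables by their mouse Ensembl identifiers, as 10 of 54838 genes. They are the granule proteases Cpa3, Mcpt4, Cma1, Tpsb2 and Tpsab1, the receptors Kit, Fcer1a and Ms4a2, the histamine-forming enzyme Hdc and the transcription factor Gata2. All 10 were present in the tables and 5 of them (Cpa3, Mcpt4, Cma1, Kit and Hdc) had enough counts to pass the filter of the test. The genes were selected on their raw counts in these 9 libraries, besides being known mast cell genes, so their own values are a description. Their fold changes carry a standard error and no p, and where their calls in the fit of the whole table are counted, nothing is read from them.

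The counts come from ears of C57BL/6 mice aged 10 weeks, measured by 3′ tag RNA-Seq, which reads each transcript near its 3′ end. The 3 groups were Mdl-1-/- mice given IL-23 minicircle DNA, wild-type mice given IL-23 minicircle DNA and wild-type mice given GFP minicircle DNA, with 3 libraries each. A minicircle is a DNA circle freed of its bacterial backbone, and 15 µg was given to every mouse by hydrodynamic tail vein injection, so that the wild-type GFP mice also carry the injected DNA. IL-23 is a cytokine that drives skin inflammation, and MDL-1, the product of the gene Clec5a, is a receptor on myeloid cells; the series asked which part of the IL-23 profile of the skin depends on it. No Mdl-1-/- mice with GFP DNA were analysed here, so that an effect of the genotype without IL-23 cannot be told apart from one that needs IL-23. The time between injection and collection, the cells deleted for Mdl-1 and the deleted part of the gene were stated in none of the sources used here. The labels do not say that each library came from a separate animal, and the spread given here is that between libraries.

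Library totals ran from 3776188 to 5605713 counts. Clec5a itself was counted 10, 13 and 5 times in Mdl-1-/- IL-23 libraries, 17, 21 and 11 times in wild-type IL-23 libraries and 2, 7 and 10 times in wild-type GFP libraries, and a 3′ tag outside the deleted part would not show a deletion. Krt14, a keratin of the basal epidermis, had 20318 to 29900 counts in Mdl-1-/- IL-23 libraries, 31655 to 43056 in wild-type IL-23 libraries and 20701 to 29020 in wild-type GFP libraries, a level that marks the tissue as skin. Mast cell transcripts are a small share of ear RNA, and a count of 0 in a library allows up to 0.461 to 0.988 CPM (counts per 1000000 counts of the library) at 3 counts. Levels below are CPM scaled by the trimmed mean of M-values (TMM), given as mean ± SD with n = 3.

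Among the listed genes, the proteases Mcpt4, Cma1 and Tpsb2, known from connective tissue mast cells, the type that lives in skin, were counted in each group. They were listed by name, so their presence does not type the cells. Mcpt1 and Mcpt2, proteases of mucosal mast cells, and Ctsg, the cathepsin G gene, had no count in any library. Mcpt8 and Prss34, proteases of basophils, had 1 count each over the 9 libraries.

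Among the granule proteases, the transcripts of Cpa3, Mcpt4 and Cma1 were lowest in wild-type IL-23 ears, and higher both in Mdl-1-/- IL-23 ears and in wild-type GFP ears. The counts of all 5 protease genes summed to 86, 35 and 32 in Mdl-1-/- IL-23 libraries, 8, 15 and 10 in wild-type IL-23 and 116, 65 and 88 in wild-type GFP libraries. In scaled units these sums were 11.6 ± 6.55 CPM in Mdl-1-/- IL-23 ears, 2.80 ± 0.841 CPM in wild-type IL-23 ears and 15.2 ± 4.33 CPM in wild-type GFP ears. The wild-type IL-23 libraries lay below the other 6, and the ranges of Mdl-1-/- IL-23 and wild-type GFP libraries overlapped. Mdl-1-/- library 1 held more than each of the other Mdl-1-/- libraries, and its share of the group shows in every protease. CPM is a share of the RNA of a whole ear. Fewer mast cells, less of these transcripts per cell and more RNA of other cells cannot be told apart.

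Cpa3 (ENSMUSG00000001865, chr3:20215620-20242181 on the minus strand, GRCm38) encodes carboxypeptidase A3, a metalloprotease stored in the granule. It was counted 27, 13 and 8 times in Mdl-1-/- IL-23 libraries, 1, 2 and 2 times in wild-type IL-23 libraries, and 42, 18 and 29 times in wild-type GFP libraries. The mean was 3.63 ± 2.13 CPM in Mdl-1-/- IL-23, 0.441 ± 0.215 CPM in wild-type IL-23 and 5.00 ± 2.04 CPM in wild-type GFP ears. The lowest Mdl-1-/- IL-23 library thus held 8 counts where no wild-type IL-23 library held more than 2, and the Mdl-1-/- IL-23 and wild-type GFP ranges overlapped. The fitted log2 fold change was 3.05 (SE 0.66) for Mdl-1-/- IL-23 over wild-type IL-23, or 8.26-fold. For wild-type IL-23 over wild-type GFP it was -3.50 (SE 0.63), or 11.3-fold lower. For Mdl-1-/- IL-23 over wild-type GFP it was -0.46 (SE 0.43). The wild-type IL-23 value rests on 5 counts in all, and the ratio of pooled counts gave 8.81 for the first of these comparisons, with an exact 95% interval of 3.53 to 28.4 that covers counting error only.

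Mcpt4 (ENSMUSG00000061068, chr14:56059629-56062313, minus strand) encodes mouse mast cell protease 4, a chymase. Its counts were 20, 7 and 8 in Mdl-1-/- IL-23 libraries, 1, 3 and 0 in wild-type IL-23 and 24, 17 and 22 in wild-type GFP libraries. It averaged 2.65 ± 1.57 CPM in Mdl-1-/- IL-23, 0.294 ± 0.332 CPM in wild-type IL-23 and 3.55 ± 0.542 CPM in wild-type GFP ears. Again no wild-type IL-23 library reached any of the others. The log2 fold change was 2.92 (SE 0.71), or 7.56-fold, for Mdl-1-/- IL-23 over wild-type IL-23, and -3.33 (SE 0.67), or 10.1-fold lower, for wild-type IL-23 over wild-type GFP. Between Mdl-1-/- IL-23 and wild-type GFP it was -0.41 (SE 0.46), and those ranges overlapped. Cma1 (ENSMUSG00000022225, chr14:55941451-55944675, minus strand), which encodes mast cell protease 5, lies in the same protease cluster of chromosome 14. It had 21, 11 and 8 counts in Mdl-1-/- IL-23 libraries, 3, 5 and 3 in wild-type IL-23 and 40, 15 and 27 in wild-type GFP libraries. Its means of 3.03 ± 1.46 CPM in Mdl-1-/- IL-23, 0.921 ± 0.211 CPM in wild-type IL-23 and 4.60 ± 2.13 CPM in wild-type GFP ears were in the same order of groups as those of Cpa3 and Mcpt4. Its log2 fold change was 1.70 (SE 0.56), or 3.26-fold, for Mdl-1-/- IL-23 over wild-type IL-23, and -2.30 (SE 0.53), or 4.92-fold lower, for wild-type IL-23 over wild-type GFP. Between Mdl-1-/- IL-23 and wild-type GFP, whose libraries overlapped, it was -0.60 (SE 0.43). Reads of near-identical genes could be shared with both. Of all 50-base words in the last 500 bases of protein-coding transcripts, 12.9% of those of Mcpt4 also occur in Cma2 or Mcpt9, which had 4 counts and 1 count over the 9 libraries. For Cma1 the share was 12.4%, all in the pseudogene Gm48934, which had 0 counts over the 9 libraries, and the other 8 genes shared none.

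The tryptase genes had overlapping libraries or almost no counts. Tpsb2 (ENSMUSG00000033825, chr17:25366305-25369098, plus strand), the gene of mast cell protease 6, had 15, 4 and 8 counts in Mdl-1-/- IL-23 libraries, 3, 5 and 5 in wild-type IL-23 and 9, 14 and 9 in wild-type GFP libraries. The levels were 2.05 ± 1.22 CPM in Mdl-1-/- IL-23, 1.14 ± 0.483 CPM in wild-type IL-23 and 1.83 ± 0.633 CPM in wild-type GFP ears, and the groups overlapped in every pair. It did not pass the filter, and the ratio of pooled counts was 1.91 (exact 95% interval 0.950 to 4.02) for Mdl-1-/- IL-23 over wild-type IL-23 and 0.601 (0.290 to 1.18) for wild-type IL-23 over wild-type GFP. Tpsab1 (ENSMUSG00000024173, chr17:25343245-25345562, minus strand) encodes the tryptase mast cell protease 7, which the C57BL/6 strain is known to lack because of a splice-site change. It had 3, 0 and 0 counts in Mdl-1-/- IL-23 libraries, none in wild-type IL-23 libraries and 1 in each wild-type GFP library, too few for a fold.

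**Figure D1:**
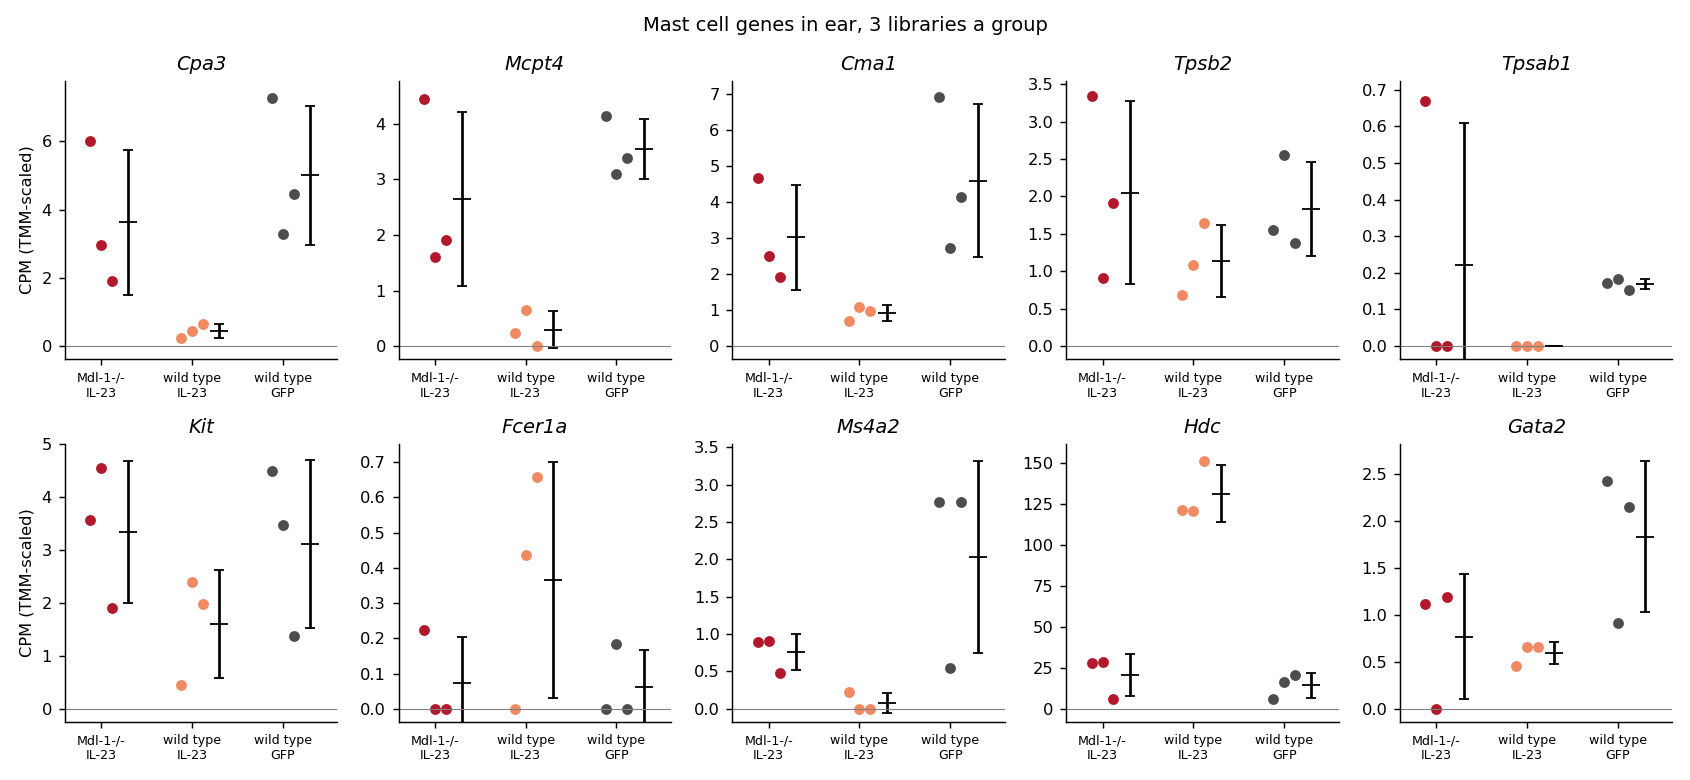
Levels of the 10 mast cell genes in TMM-scaled CPM (vertical axes, one scale per gene) in each library, with points for libraries, black bars for mean ± SD (n = 3) and groups from left to right Mdl-1-/- IL-23, wild-type IL-23 and wild-type GFP. Cpa3, Mcpt4, Cma1 and Ms4a2 are lowest in wild-type IL-23 ears, where Hdc is highest at 131 ± 17.4 CPM.

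The start regions of Cpa3, Mcpt4, Cma1 and Ms4a2 are shown here. They were picked because these 4 were higher in all Mdl-1-/- IL-23 libraries than in any wild-type IL-23 library. Their matches are therefore a description of genes chosen on these counts. Mast cell genes are known targets of GATA factors such as GATA2. Each window covers the 250 bases before the transcript start in RefSeq on GRCm38.p6, written 5′ to 3′ along the gene, and capitals mark matches on either strand to the GATA motif, spelled AGATAA, with G allowed as its last letter (AGATAG), T allowed as its first (TGATAA), or both of these changes together (TGATAG). The windows are chr3:20242182-20242431 for Cpa3, chr14:56062311-56062560 for Mcpt4, chr14:55944676-55944925 for Cma1 and chr19:11623720-11623969 for Ms4a2, all on the minus strand.
Cpa3: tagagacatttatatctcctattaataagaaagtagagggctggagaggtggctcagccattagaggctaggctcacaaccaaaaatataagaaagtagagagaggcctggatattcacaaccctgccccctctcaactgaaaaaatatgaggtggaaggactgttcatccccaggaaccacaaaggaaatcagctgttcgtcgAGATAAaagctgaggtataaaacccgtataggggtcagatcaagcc
Mcpt4: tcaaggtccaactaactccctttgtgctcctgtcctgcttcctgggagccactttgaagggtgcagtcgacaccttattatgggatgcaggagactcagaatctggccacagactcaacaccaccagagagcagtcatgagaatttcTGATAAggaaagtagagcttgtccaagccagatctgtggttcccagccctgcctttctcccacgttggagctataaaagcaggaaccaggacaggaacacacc
Cma1: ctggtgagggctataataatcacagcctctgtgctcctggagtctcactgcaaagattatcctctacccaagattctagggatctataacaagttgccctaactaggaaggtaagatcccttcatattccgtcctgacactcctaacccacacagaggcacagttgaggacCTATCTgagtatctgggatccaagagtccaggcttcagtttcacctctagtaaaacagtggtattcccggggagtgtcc
Ms4a2: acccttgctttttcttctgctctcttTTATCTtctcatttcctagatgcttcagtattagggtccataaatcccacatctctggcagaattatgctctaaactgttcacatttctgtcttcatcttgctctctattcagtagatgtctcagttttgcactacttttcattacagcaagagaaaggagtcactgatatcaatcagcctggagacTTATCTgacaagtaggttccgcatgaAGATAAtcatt
Cpa3 has its match 46 bases before the start, Mcpt4 at 103 and Cma1 at 79, and Ms4a2 has 3, at 224, 37 and 11. Of the 8 listed genes with a RefSeq window, 6 held at least 1 match, the others being Fcer1a at 92 bases and Hdc at 221. Hdc went in the opposite direction, lower in Mdl-1-/- IL-23 than in wild-type IL-23 libraries. The 2 windows of Kit and the 2 of Gata2 held none. The 8 genes have 10 windows, and the shares that follow are of windows and not of genes. Such a match was present in 26.5% of all 32851 RefSeq windows of this length, and 2 or more in 6.4%. The E-box letters CACGTG or CACATG, which the mast cell factor MITF can bind, occurred in the window of Fcer1a alone among the 8 genes and in 17.6% of all windows. Matches describe these letters and no binding was measured.

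The receptor genes had unlike patterns. Kit (ENSMUSG00000005672, chr5:75574916-75656722, plus strand), the receptor for stem cell factor, is also made by melanocytes and other skin cells. It had 16, 20 and 8 counts in Mdl-1-/- IL-23 libraries, 2, 11 and 6 in wild-type IL-23 and 26, 19 and 9 in wild-type GFP libraries. Its levels were 3.34 ± 1.34 CPM in Mdl-1-/- IL-23, 1.61 ± 1.02 CPM in wild-type IL-23 and 3.12 ± 1.59 CPM in wild-type GFP ears, with overlap between every pair of groups. The log2 fold changes were 1.07 (SE 0.58) for Mdl-1-/- IL-23 over wild-type IL-23, -0.95 (SE 0.57) for wild-type IL-23 over wild-type GFP and 0.12 (SE 0.50) for Mdl-1-/- IL-23 over wild-type GFP.

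Ms4a2 (ENSMUSG00000024680, chr19:11615523-11623719, minus strand) encodes the beta chain of the high-affinity IgE receptor, which amplifies the signal and is made by mast cells and basophils. It was counted 4, 4 and 2 times in Mdl-1-/- IL-23 libraries, 1, 0 and 0 times in wild-type IL-23 libraries, and 16, 3 and 18 times in wild-type GFP libraries. These are levels of 0.760 ± 0.245 CPM in Mdl-1-/- IL-23, 0.0761 ± 0.132 CPM in wild-type IL-23 and 2.03 ± 1.28 CPM in wild-type GFP ears. All wild-type IL-23 values were below those of the other libraries, and the single count there leaves a wide margin. The ratio of pooled counts was 9.18 (exact 95% interval 1.31 to 398) for Mdl-1-/- IL-23 over wild-type IL-23, and 0.0400 (0.000987 to 0.237) for wild-type IL-23 over wild-type GFP. For Mdl-1-/- IL-23 over wild-type GFP it was 0.367 (0.163 to 0.753), with overlapping libraries. Fcer1a (ENSMUSG00000005339, chr1:173221284-173227214, minus strand), the alpha chain that holds IgE, had 1, 0 and 0 counts in Mdl-1-/- IL-23 libraries, 0, 2 and 2 in wild-type IL-23 and 0, 1 and 0 in wild-type GFP libraries, and a difference was not detectable at this depth. Fcer1g, the gamma chain that signals for several other receptors of myeloid cells as well, took the opposite direction and is described with the signalling genes.

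Hdc (ENSMUSG00000027360, chr2:126593667-126619299, minus strand) encodes histidine decarboxylase, the enzyme that forms histamine, and is known from mast cells, basophils and neutrophils. It ran against the proteases, being highest in wild-type IL-23 ears. Counts were 125, 124 and 25 in Mdl-1-/- IL-23 libraries, 531, 554 and 459 in wild-type IL-23 and 33, 90 and 134 in wild-type GFP libraries. The levels were 20.7 ± 12.8 CPM in Mdl-1-/- IL-23, 131 ± 17.4 CPM in wild-type IL-23 and 14.2 ± 7.68 CPM in wild-type GFP ears. Every wild-type IL-23 library lay above all others, while Mdl-1-/- IL-23 and wild-type GFP libraries overlapped. The log2 fold change was -2.65 (SE 0.59), or 6.29-fold lower, for Mdl-1-/- IL-23 over wild-type IL-23, and 3.19 (SE 0.60), or 9.11-fold higher, for wild-type IL-23 over wild-type GFP. It was 0.53 (SE 0.62) for Mdl-1-/- IL-23 over wild-type GFP.

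Called genes of neutrophils went in the direction of Hdc. Of 10 listed neutrophil genes, 8 were tested. None was higher and 3 were lower in Mdl-1-/- IL-23 than in wild-type IL-23 ears, and 7 were higher and none lower in wild-type IL-23 than in wild-type GFP ears (edgeR, adjusted p under 0.05). Over all 13807 tested genes, 10.1% were lower in the first comparison and 22.9% higher in the second. DESeq2 called 6 and limma voom 5 of the neutrophil genes in the first, where S100a8 (edgeR adjusted p = 0.0777) and S100a9 (0.0816) missed the threshold of edgeR, and each called 7 in the second. Without S100a8 and S100a9, which keratinocytes of inflamed skin also make, the listed genes summed to 116 to 149 CPM in Mdl-1-/- IL-23 libraries, 215 to 259 CPM in wild-type IL-23 libraries and 72.5 to 123 CPM in wild-type GFP libraries. Csf3r, the receptor for the neutrophil growth factor G-CSF, fell by 1.87 on the log2 scale in Mdl-1-/- IL-23 relative to wild-type IL-23 ears (edgeR adjusted p = 0.0213) and was 2.43 higher in wild-type IL-23 than in wild-type GFP ears (edgeR adjusted p = 0.00141). Clec4d, a lectin receptor of myeloid cells, gave -2.36 (edgeR adjusted p = 0.0242) and 1.98 (edgeR adjusted p = 0.0157) in the same comparisons, and Retnlg, a resistin-like gene of neutrophils, -2.23 (edgeR adjusted p = 0.0215) and 3.36 (edgeR adjusted p = 0.00102). For Mdl-1-/- IL-23 over wild-type IL-23, single left-out libraries ended the call of Csf3r in 3 of 9 fits (edgeR adjusted p up to 0.0804), of Clec4d in 6 (up to 0.0849) and of Retnlg in 4 (up to 0.0884). The Clec4d call for wild-type IL-23 over wild-type GFP was lost without library 3 of wild-type IL-23 (0.0564). Cxcr2, a chemokine receptor of neutrophils, was called in the second of these and not in the first. Its level was 30.2 ± 9.74 CPM in Mdl-1-/- IL-23, 36.8 ± 4.43 CPM in wild-type IL-23 and 2.75 ± 0.192 CPM in wild-type GFP ears, with a log2 fold change of -0.28 for Mdl-1-/- IL-23 over wild-type IL-23 (edgeR adjusted p = 0.381).

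Srgn encodes serglycin, the granule proteoglycan of mast cells that neutrophils and other leukocytes make too. It had 63, 84 and 27 counts in Mdl-1-/- IL-23 libraries, 217, 225 and 167 in wild-type IL-23 and 10, 59 and 100 in wild-type GFP libraries. Clec4d had 37, 29 and 10 counts in Mdl-1-/- IL-23, 125, 121 and 105 in wild-type IL-23 and 10, 51 and 74 in wild-type GFP libraries. Hdc, Srgn and Clec4d shared their lowest library within the group of Mdl-1-/- IL-23, library 3, and within that of wild-type GFP, library 1. Clec4d was singled out after its values were seen. The 8 neutrophil genes without S100a8 and S100a9 had their lowest sums in the same libraries. The sum of all 10, most of it S100a8 and S100a9, was lowest elsewhere, in Mdl-1-/- library 1 (6745 CPM, against 13509 CPM in library 3) and in wild-type GFP library 3 (322 CPM, against 403 CPM in library 1). Which cells made the Hdc transcripts was not tested.

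**Figure D2:**
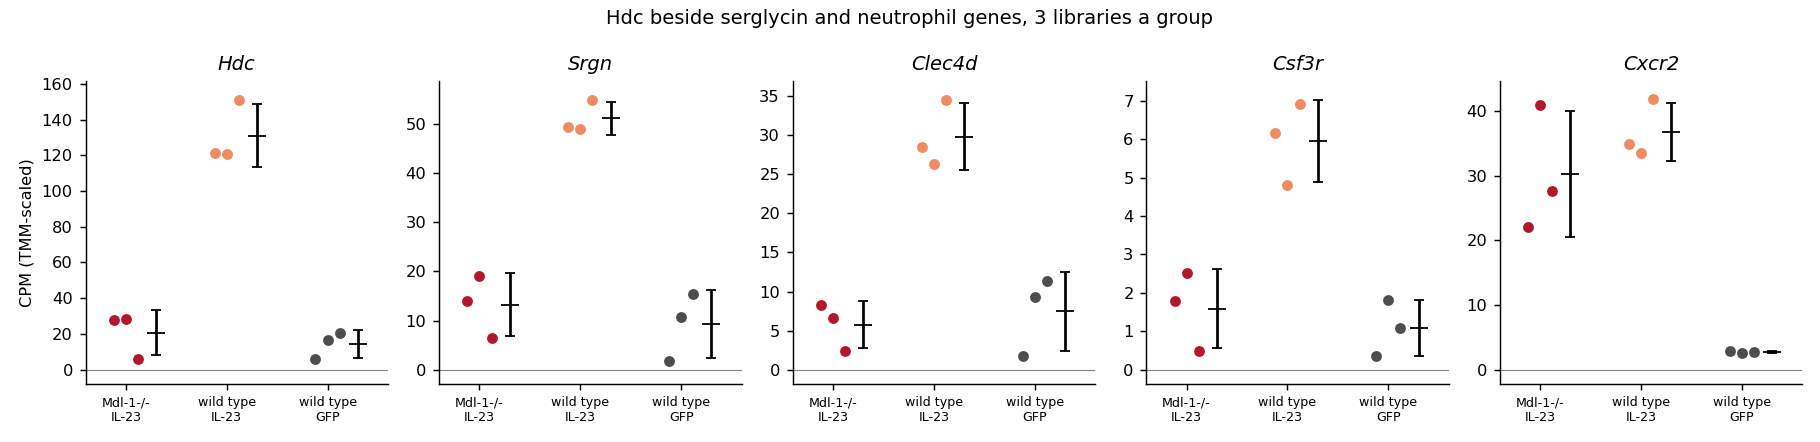
Levels in TMM-scaled CPM (vertical axes, one scale per gene) of Hdc beside Srgn and the neutrophil genes Clec4d, Csf3r and Cxcr2 in each library, with points for libraries, black bars for mean ± SD (n = 3) and groups from left to right Mdl-1-/- IL-23, wild-type IL-23 and wild-type GFP. Hdc, Srgn, Clec4d and Csf3r are highest in wild-type IL-23 libraries, and Cxcr2 is high in Mdl-1-/- IL-23 (30.2 ± 9.74 CPM) and in wild-type IL-23 ears (36.8 ± 4.43 CPM).

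Gata2 (ENSMUSG00000015053, chr6:88193891-88207032, plus strand) encodes a zinc-finger transcription factor that mast cells need and that endothelial cells also make. It had 5, 0 and 5 counts in Mdl-1-/- IL-23 libraries, 2, 3 and 2 in wild-type IL-23 and 14, 5 and 14 in wild-type GFP libraries, which are 0.769 ± 0.667 CPM in Mdl-1-/- IL-23, 0.590 ± 0.115 CPM in wild-type IL-23 and 1.83 ± 0.804 CPM in wild-type GFP ears. The wild-type IL-23 libraries were below the wild-type GFP libraries without overlap, and the Mdl-1-/- IL-23 libraries overlapped both groups. The ratio of pooled counts was 1.31 (exact 95% interval 0.451 to 4.06) for Mdl-1-/- IL-23 over wild-type IL-23 and 0.314 (0.117 to 0.722) for wild-type IL-23 over wild-type GFP. For Mdl-1-/- IL-23 over wild-type GFP it was 0.412 (0.181 to 0.855). Beside it, the 6 listed endothelial genes summed to 11.8 to 24.3 CPM in Mdl-1-/- IL-23 libraries, 14.8 to 30.5 CPM in wild-type IL-23 libraries and 26.6 to 36.7 CPM in wild-type GFP libraries. Of the 3 tested, Cdh5, the cadherin of endothelial junctions, fell in wild-type IL-23 relative to wild-type GFP ears by 1.72 on the log2 scale (edgeR adjusted p = 0.031), a call lost in 4 fits that leave out a library (up to 0.135). Pecam1 (0.03, edgeR adjusted p = 0.95) and Kdr (-0.28, edgeR adjusted p = 0.544) were not called in that comparison. The part of endothelial RNA in the Gata2 counts was not tested.

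Counted together, 4 of the 5 tested genes were past the threshold of the whole-table test for Mdl-1-/- IL-23 over wild-type IL-23, as were 17.7% of all 13807 tested genes. Those were Cpa3, Mcpt4 and Cma1 as higher (7.58% of all genes) and Hdc as lower (10.1%). For wild-type IL-23 over wild-type GFP, 4 of 5 were past it as well, against 44.7% of all genes, with Hdc higher (22.9%) and Cpa3, Mcpt4 and Cma1 lower (21.7%). For Mdl-1-/- IL-23 over wild-type GFP none of the 5 was called by edgeR, at an unadjusted p under 0.05, by DESeq2 or by limma voom, against 17.1% of all genes called by edgeR (10.2% higher and 6.93% lower). Since the genes were chosen with these comparisons known, nothing is read from these counts. Among the 5 tested genes, libraries of Mdl-1-/- IL-23 and wild-type IL-23 ears did not overlap for Cpa3, Mcpt4 and Cma1 (higher) and for Hdc (lower), where 17.2% and 19.3% of all tested genes do so. Those of wild-type IL-23 and wild-type GFP ears did not overlap for Hdc (higher) and for Cpa3, Mcpt4 and Cma1 (lower), where 27.5% and 27.1% of all tested genes do so. In the third comparison all 5 overlapped, where 18.1% (higher) and 17.8% (lower) of all tested genes do not. Of the genes that did not pass the filter, to which these shares do not apply, Ms4a2 did not overlap in the first and second comparison and Gata2 in the second. Tpsab1 had 0 counts in each wild-type IL-23 library and 1 in each wild-type GFP library, below the floor of 3 counts. The comparisons share the wild-type IL-23 or the other libraries, so that their fold changes are not independent of each other.

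Some of these calls were lost in fits that leave out a library. In those fits the genes called over the whole table for Mdl-1-/- IL-23 over wild-type IL-23 also changed, to 1128 to 2802 from 2439. A call could thus be lost with little change of the fold, as for Hdc, which had -2.65 with all libraries. Mcpt4 lost its call for Mdl-1-/- IL-23 over wild-type IL-23 without Mdl-1-/- library 1, where the log2 fold change was 2.32. Cma1 lost it without Mdl-1-/- library 1 (1.25) or 2 (1.84), without any of the wild-type IL-23 ones (1.52, 1.88 and 1.75) and without wild-type GFP library 3 (1.72), and also with DESeq2, with limma voom and with dispersions that are not robust. Hdc lost it without Mdl-1-/- library 1 (-2.92) and without any of the wild-type IL-23 ones (-2.71, -2.69 and -2.53). The log2 fold change of Cpa3 in this comparison ran from 2.47 to 3.36 over the alternatives that tested it. For wild-type IL-23 over wild-type GFP the ranges were -3.80 to -3.13 for Cpa3, -4.48 to -2.92 for Mcpt4, -2.53 to -1.88 for Cma1 and 2.82 to 3.56 for Hdc. These are a description too, since the genes were selected on the same counts.

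**Figure D3:**
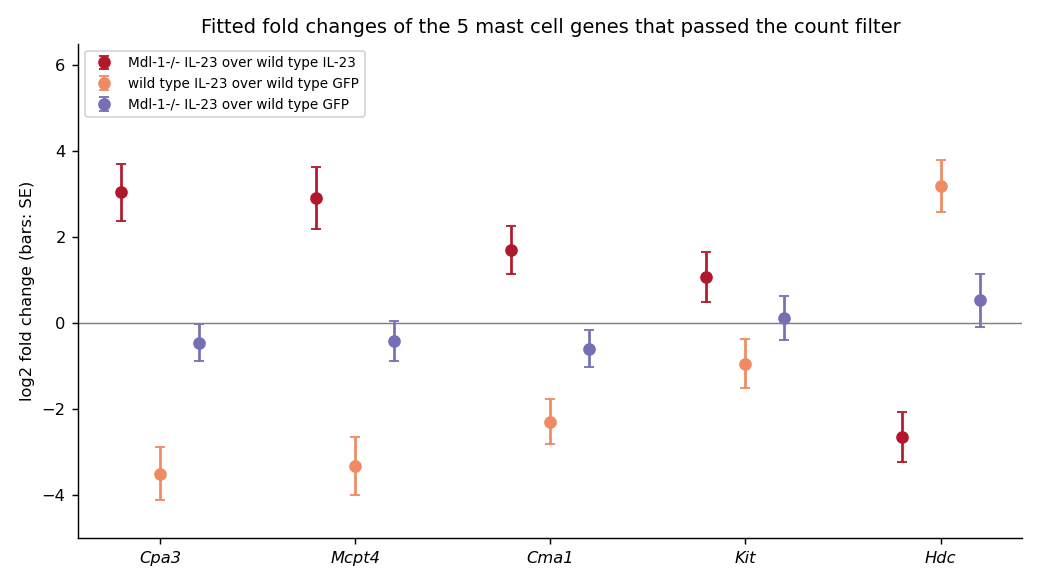
Fitted log2 fold changes (vertical axis) with SE bars of the 5 mast cell genes that passed the count filter, for Mdl-1-/- IL-23 over wild-type IL-23 (red), wild-type IL-23 over wild-type GFP (orange) and Mdl-1-/- IL-23 over wild-type GFP (purple). Red and orange points lie on opposite sides of 0 for each gene, with Cpa3 at 3.05 and -3.50, and the purple points lie between -0.60 and 0.53.

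Outside the 10 genes, 7 lists of mast cell biology held 75 more genes, of which 44 were tested. In Mdl-1-/- IL-23 relative to wild-type IL-23 ears 4 of them (9.09%) were called higher and 9 (20.5%) lower, where 7.58% and 10.1% of all tested genes were, with a median log2 fold change of -0.25 against 0.00 for all tested genes. In wild-type IL-23 relative to wild-type GFP ears 20 (45.5%) were called higher and 8 (18.2%) lower, where 22.9% and 21.7% of all genes were, with a median of 0.55 against -0.04. In Mdl-1-/- IL-23 relative to wild-type GFP ears 10 (22.7%) were called higher and 3 (6.82%) lower, where 10.2% and 6.93% of all genes were, with a median of 0.17 against -0.02. The share of calls in the direction of the proteases was thus near that of all genes in both comparisons with wild-type IL-23. On balance the direction of the median was that of Hdc and not of the proteases, and many of these genes are also made by other leukocytes.

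Other mast cell genes with restricted expression had few counts. Mrgprb1, a receptor related to the mast cell receptor for basic secretagogues, had 3, 3 and 5 counts in Mdl-1-/- IL-23 libraries, 2, 1 and 0 in wild-type IL-23 and 8, 5 and 8 in wild-type GFP libraries, the order of Cpa3. Mrgprb2 of the same list had 3, 0 and 2, then 0, 1 and 1, then 3, 3 and 4 counts in these groups. Its Mdl-1-/- IL-23 and wild-type IL-23 libraries overlapped. Mrgprx2 had 1, 0 and 6 counts in all in the same order of groups. None of these genes passed the filter or was tested. Of 19 listed genes 7 were tested, with none higher and 1 lower for Mdl-1-/- IL-23 over wild-type IL-23 and 4 higher and 2 lower for wild-type IL-23 over wild-type GFP. Over all tested genes, 7.58% were higher and 10.1% lower in the first, and 22.9% and 21.7% in the second. The medians of the 7 were -0.56 and 0.72 on the log2 scale. Cyp11a1, an enzyme of steroid synthesis, was the gene called lower in the first, by 0.96 (SE 0.31, edgeR adjusted p = 0.0453), a call lost in 9 of 17 alternatives. Srgn had a larger fall there that missed the threshold, -1.95 (SE 0.60, edgeR adjusted p = 0.064). It was called in 6 of 17 alternatives, among them DESeq2 (adjusted p = 0.0415) and limma voom (adjusted p = 0.0122). Cyp11a1 rose in wild-type IL-23 relative to wild-type GFP ears, with a log2 fold change of 3.52 (SE 0.38, edgeR adjusted p = 5.15e-06). Srgn rose by 2.44 in that comparison (SE 0.61, edgeR adjusted p = 0.0142), and Rab27b, a small GTPase of granule release, by 0.81 (SE 0.18, edgeR adjusted p = 0.0022). Mitf, a transcription factor of mast cells and melanocytes, fell by 0.84 (SE 0.19, edgeR adjusted p = 0.00207). Slc45a3, a sugar transporter named in mast cells and basophils, fell by 0.99 (edgeR adjusted p = 0.0228), a call lost in 3 fits that leave out a library (up to 0.105). Ndst2, a sulfotransferase of heparin synthesis, rose by 0.62 (SE 0.20, edgeR adjusted p = 0.018), a call lost in 2 such fits (up to 0.111) and with upper-quartile scaling (0.0669).

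Genes of IgE receptor and KIT signalling had medians on the side of Hdc. Of 13 tested, 1 was higher and 4 lower in Mdl-1-/- IL-23 relative to wild-type IL-23 ears (median -0.48), where 7.58% and 10.1% of all genes were. In wild-type IL-23 relative to wild-type GFP ears 7 were higher and 1 lower (median 0.48), where 22.9% and 21.7% of all genes were. Fcer1g, the gamma chain, fell by 1.28 on the log2 scale in the first comparison (SE 0.30, edgeR adjusted p = 0.0104) and rose by 1.29 in the second (SE 0.30, edgeR adjusted p = 0.00234). The adaptor Lcp2 fell by 1.49 (SE 0.34, edgeR adjusted p = 0.00901) and rose by 2.58 (SE 0.36, edgeR adjusted p = 5.02e-05). Syk, the kinase recruited by the gamma chain, gave -1.16 (edgeR adjusted p = 0.0329) and 1.38 (edgeR adjusted p = 0.00447). The lipid phosphatase gene Inpp5d gave -1.25 (edgeR adjusted p = 0.0301) and 1.76 (edgeR adjusted p = 0.00141). Cbl, a ubiquitin ligase that acts on KIT and other receptors, had the opposite signs, 0.52 (edgeR adjusted p = 0.0332) and -0.57 (edgeR adjusted p = 0.00866). The genes Fcer1g, Lcp2, Syk and Inpp5d are active in other myeloid cells too. In the first comparison Fcer1g lost its call without Mdl-1-/- library 3 (edgeR adjusted p = 0.051) or without library 2 of wild-type IL-23 (0.0665), and Lcp2 without wild-type IL-23 library 2 (0.0553). Syk lost it in 5 of the fits that leave out a library (0.0662 to 0.117) and Inpp5d in 4 (0.0828 to 0.117). Cbl lost it in 5 (0.0513 to 0.121), and in the second comparison without wild-type GFP library 3 (0.0587). None of the 13 was called for Mdl-1-/- IL-23 over wild-type GFP by edgeR, DESeq2 or limma voom, and 2 had an unadjusted p under 0.05.

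Kitl, the gene of stem cell factor, the ligand of KIT, went with the proteases. It was counted 152, 75 and 79 times in Mdl-1-/- IL-23 libraries, 69, 47 and 30 times in wild-type IL-23 libraries and 241, 237 and 260 times in wild-type GFP libraries. The levels of 23.3 ± 9.21 CPM in Mdl-1-/- IL-23, 12.0 ± 3.29 CPM in wild-type IL-23 and 41.6 ± 1.65 CPM in wild-type GFP ears did not overlap between any of the groups. Kitl was 0.95 higher on the log2 scale in Mdl-1-/- IL-23 than in wild-type IL-23 ears (SE 0.26, edgeR adjusted p = 0.0212) and fell by 1.79 in wild-type IL-23 relative to wild-type GFP ears (SE 0.25, edgeR adjusted p = 5.12e-05). It fell by 0.84 in Mdl-1-/- IL-23 relative to wild-type GFP ears (SE 0.23, edgeR adjusted p = 0.0212). The first call was lost without Mdl-1-/- library 1 (edgeR adjusted p = 0.13) and without library 2 (0.0951) or 3 (0.0765) of wild-type IL-23, and the third in 5 of the fits that leave out a library (0.055 to 0.12). Il33, an alarmin of epithelial and stromal cells that acts on mast cells, fell by 0.70 in wild-type IL-23 relative to wild-type GFP ears (SE 0.24, edgeR adjusted p = 0.0331) and by 0.91 in Mdl-1-/- IL-23 relative to wild-type GFP ears (SE 0.24, edgeR adjusted p = 0.0225). Each of these Il33 calls was lost in 4 fits that leave out a library. The receptor chain gene Csf2rb, shared by IL-3, IL-5 and GM-CSF, ran the other way, with -1.09 in Mdl-1-/- IL-23 relative to wild-type IL-23 ears (SE 0.24, edgeR adjusted p = 0.00785) and 2.42 in wild-type IL-23 relative to wild-type GFP ears (SE 0.26, edgeR adjusted p = 5.09e-06). Il4ra, the IL-4 receptor chain, gave -0.99 (edgeR adjusted p = 0.0175) and 2.19 (edgeR adjusted p = 2.86e-05), and the first of these was lost in 4 fits that leave out a library. Csf2rb2, a mouse IL-3 receptor chain, was 1.24 higher in the second (edgeR adjusted p = 0.0405), a call lost in 8 of 16 alternatives, which were 5 fits that leave out a library (up to 0.156), DESeq2 (0.0541), upper-quartile scaling (0.0666) and no count filter (0.064). Of the 7 tested growth factors and receptors, 1 was called higher and 2 lower in the first comparison (median -0.21), and 3 higher and 2 lower in the second (median 0.24). Shares over all tested genes were 7.58% higher and 10.1% lower in the first, and 22.9% and 21.7% in the second.

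Among genes for the granule matrix, Glce, an epimerase of heparin and heparan sulfate synthesis, had the order of the proteases. Its level was 28.8 ± 3.84 CPM in Mdl-1-/- IL-23, 14.5 ± 1.77 CPM in wild-type IL-23 and 35.1 ± 11.6 CPM in wild-type GFP ears. It was 0.99 higher on the log2 scale in Mdl-1-/- IL-23 than in wild-type IL-23 ears (SE 0.24, edgeR adjusted p = 0.012) and fell by 1.29 in wild-type IL-23 relative to wild-type GFP ears (SE 0.24, edgeR adjusted p = 0.000465). Without wild-type IL-23 library 2 the first call was lost (edgeR adjusted p = 0.0608). Hs3st1, a sulfotransferase of the same pathway, rose by 3.53 in wild-type IL-23 relative to wild-type GFP ears (edgeR adjusted p = 1.07e-05). Of 8 tested genes of this list 1 was higher and none lower for Mdl-1-/- IL-23 over wild-type IL-23 (median -0.18), and 3 were higher and 1 lower for wild-type IL-23 over wild-type GFP (median 0.44). All tested genes had shares of 7.58% higher and 10.1% lower in the former, and 22.9% and 21.7% in the latter.

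Histamine breakdown and receptors were thinly covered, with 2 of 8 genes tested. Hnmt, the enzyme that methylates histamine, had 2.80 ± 1.17 CPM in Mdl-1-/- IL-23, 1.48 ± 0.146 CPM in wild-type IL-23 and 5.26 ± 2.48 CPM in wild-type GFP ears. It fell by 1.81 on the log2 scale in wild-type IL-23 relative to wild-type GFP ears (SE 0.47, edgeR adjusted p = 0.00541), the comparison in which Hdc was higher. Over wild-type IL-23, the Mdl-1-/- IL-23 value was 0.90 (edgeR adjusted p = 0.236). The receptor genes Hrh3 and Hrh4 had no count. Of 6 tested eicosanoid genes, 1 was higher and 2 lower in Mdl-1-/- IL-23 relative to wild-type IL-23 ears (median -0.26), and 3 were higher and 1 lower in wild-type IL-23 relative to wild-type GFP ears (median 1.09). The whole table had 7.58% higher and 10.1% lower in the first comparison, and 22.9% and 21.7% in the second. Hpgds, the prostaglandin D synthase of mast cells and other leukocytes, fell by 1.18 in the first (edgeR adjusted p = 0.0029) and rose by 2.21 in the second (edgeR adjusted p = 3.09e-06), and Ptgs2 fell by 1.39 (edgeR adjusted p = 0.0118) and rose by 2.34 (edgeR adjusted p = 8.89e-05). The cyclooxygenase gene Ptgs1 was 0.78 higher in the first (edgeR adjusted p = 0.00764). Ptgs2 lost its first call without Mdl-1-/- library 3 (0.0548) or wild-type IL-23 library 3 (0.0642). The other genes called in the second were Alox5ap, which helps form leukotrienes, with 1.34 (edgeR adjusted p = 0.000135), and the phospholipase gene Pla2g4a, which fell by 0.67 and lost its call in 3 fits that leave out a library.

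Of 5 tested transcription factors besides Gata2, none was called for Mdl-1-/- IL-23 over wild-type IL-23 by edgeR, DESeq2 or limma voom or at an unadjusted p under 0.05 (median 0.12), and 2 were higher and 1 lower for wild-type IL-23 over wild-type GFP (median 0.43). By edgeR, 17.7% of all tested genes were called in the former, and 22.9% were higher and 21.7% lower in the latter. Cebpa rose by 0.83 in wild-type IL-23 relative to wild-type GFP ears (edgeR adjusted p = 0.000415) and the myeloid factor gene Spi1 by 1.16 (edgeR adjusted p = 0.0297), and Mitf was the gene that fell. The Spi1 call was lost in 4 fits that leave out a library and with upper-quartile scaling (0.0547). Gata1, the other GATA factor of mast cells, had no count, and its partner Tal1 had 9, 0 and 1 counts in Mdl-1-/- IL-23 libraries, 0, 2 and 0 in wild-type IL-23 and 9, 1 and 7 in wild-type GFP libraries.

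**Figure D4:**
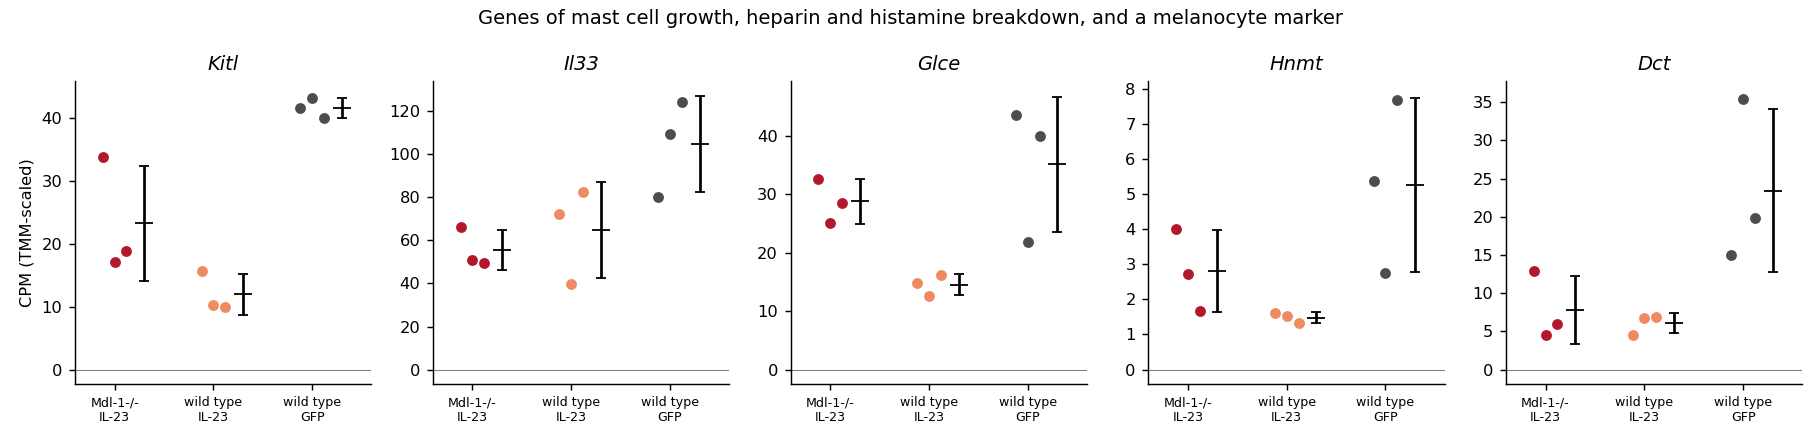
Levels in TMM-scaled CPM (vertical axes, one scale per gene) of the KIT ligand gene Kitl, Il33, the heparin epimerase gene Glce, the histamine methyltransferase gene Hnmt and the melanocyte gene Dct in each library, with points for libraries, black bars for mean ± SD (n = 3) and groups from left to right Mdl-1-/- IL-23, wild-type IL-23 and wild-type GFP. Kitl averages 23.3 CPM in Mdl-1-/- IL-23, 12.0 CPM in wild-type IL-23 and 41.6 CPM in wild-type GFP ears, with no overlap, and Dct is highest in wild-type GFP ears.

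Markers of other cells were set beside these results. The counts of calls below stand beside these shares of all tested genes. For Mdl-1-/- IL-23 over wild-type IL-23, 7.58% were higher and 10.1% lower. For wild-type IL-23 over wild-type GFP they were 22.9% and 21.7%, and for Mdl-1-/- IL-23 over wild-type GFP 10.2% and 6.93%. Basophil genes were near the floor, at summed levels of 0.477 to 1.78 CPM in Mdl-1-/- IL-23 libraries, 0.329 to 1.53 CPM in wild-type IL-23 libraries and 1.10 to 2.31 CPM in wild-type GFP libraries, with none of 5 tested. The melanocyte genes, whose cells also carry KIT, summed to 5.47 to 15.6 CPM in Mdl-1-/- IL-23, 7.54 to 9.22 CPM in wild-type IL-23 and 22.3 to 44.7 CPM in wild-type GFP libraries. Dct, an enzyme of melanin synthesis, had 7.81 ± 4.48 CPM in Mdl-1-/- IL-23, 6.08 ± 1.31 CPM in wild-type IL-23 and 23.4 ± 10.7 CPM in wild-type GFP ears. It fell by 1.95 in wild-type IL-23 relative to wild-type GFP ears (SE 0.41, edgeR adjusted p = 0.00212) and by 1.57 in Mdl-1-/- IL-23 relative to wild-type GFP ears (edgeR adjusted p = 0.0153), a call lost without Mdl-1-/- library 2 (0.0606) or 3 (0.0602). Its log2 fold change for Mdl-1-/- IL-23 over wild-type IL-23 was 0.38 (edgeR adjusted p = 0.599). Pmel, the other melanocyte gene tested, had the opposite sign there, at -0.33 (edgeR adjusted p = 0.804). The value of Kit was 1.07 (SE 0.58), with overlapping libraries. Adipocyte genes fell in both IL-23 groups, 5 of 5 tested against wild-type GFP in each (for Mdl-1-/- IL-23, Cfd lost its call in 3 and Fabp4 in 5 of the fits that leave out a library, both also with only those 2 groups in the fit, and Fabp4 with no count filter), and for Mdl-1-/- IL-23 over wild-type IL-23 none was called by edgeR, DESeq2 or limma voom or had an unadjusted p under 0.05. Macrophage genes summed to 49.9 to 61.7 CPM in Mdl-1-/- IL-23, 39.3 to 82.4 CPM in wild-type IL-23 and 20.9 to 49.8 CPM in wild-type GFP libraries, and 2 of 5 tested, C1qa and Csf1r, rose in wild-type IL-23 relative to wild-type GFP ears, calls lost in 4 and 3 fits that leave out a library. Fibroblast genes, from cells that make stem cell factor, summed to 227 to 771 CPM in Mdl-1-/- IL-23, 392 to 864 CPM in wild-type IL-23 and 711 to 1131 CPM in wild-type GFP libraries, and 2 of 6, Pdgfra and Dcn, fell in wild-type IL-23 relative to wild-type GFP ears. Of 6 keratinocyte genes 2 were higher (Krt10 and Col17a1) and 1 lower (Krt14, lost in 3 such fits) in Mdl-1-/- IL-23 than in wild-type IL-23 ears. Of 6 muscle genes 1, Myh2, was higher in the same comparison. The part of these cells in the counts of Kit, Kitl and the other genes was not tested.

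**Figure D5:**
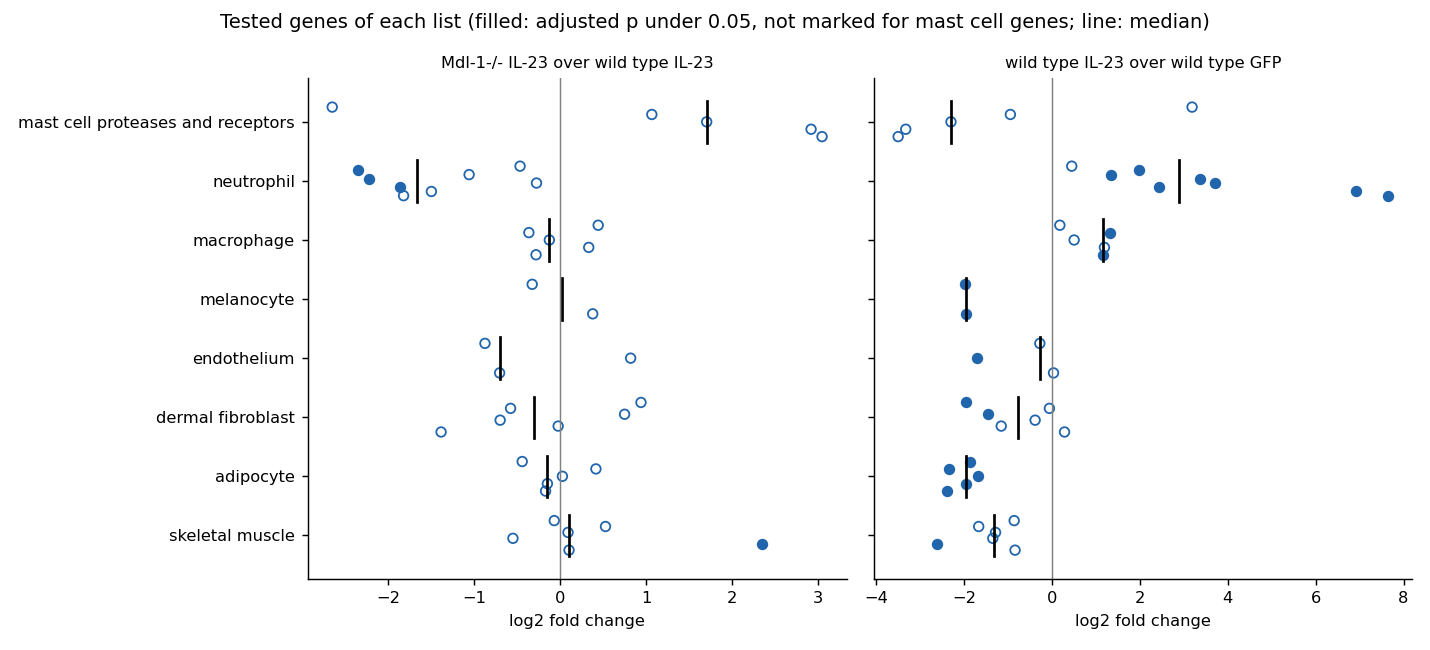
Log2 fold changes (horizontal axes) of the tested genes of the 10 mast cell genes and of 7 marker lists, for Mdl-1-/- IL-23 over wild-type IL-23 (left) and wild-type IL-23 over wild-type GFP (right), with filled points for edgeR adjusted p under 0.05 in the marker lists, open points for all mast cell genes and a line at the median. The mast cell genes have medians of 1.70 and -2.30 with Hdc on the other side, and the neutrophil genes have -1.66 and 2.89.

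Finally, genes outside the list were ranked by how closely their log2 CPM followed the mean of the 5 proteases over the 9 libraries. Each protease had the same weight in that mean. This includes Tpsb2 and Tpsab1, which did not pass the filter, and Tpsab1 had only 0 to 3 counts a library, so the ranking depends in part on few counts. The closest were Tbck (Pearson r = 0.984), Hoxc13 (0.980), Pgm2l1 (0.979), Bach2 (0.978), Nrp1 (0.966), Gm11408 (0.966), Apod (0.960) and Ctdsp2 (0.959). These r values carry the differences between groups, do not measure their size and are a description of 9 libraries. For Mdl-1-/- IL-23 over wild-type IL-23 the log2 fold changes of these genes ran from 0.63 (Tbck, not called) to 1.81 (Hoxc13), where Cpa3 had 3.05. For wild-type IL-23 over wild-type GFP they ran from -2.05 (Nrp1) to -0.67 (Tbck), where Cpa3 had -3.50. Among the listed genes Cpa3 had 0.975, Cma1 0.963 and Mcpt4 0.957, which are part of that mean, while Kit had 0.629 and Hdc -0.765.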

How the data were processed

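The authors used STAR 2.7.0a, featureCounts and edgeR, as the submitters' processing notes name them. These notes also name the build GRCh38.p6, a human one, although the identifiers are of mouse, so the build of the alignment is uncertain. Settings for strand and multi-mapping reads were not found in the labels or headers. The deposited values are the authors' raw counts per gene for 9 libraries. Each library is in 2 of 3 tables, with 0 differing values, and the tables were joined to 54838 genes. GENCODE M21 (GRCm38) gave symbols and positions by identifier, except for 115 genes without a symbol. The counts were tested in R 4.3.3 with edgeR 4.0.16: filterByExpr (minimum count 10, minimum total 15; 13807 genes kept), TMM scaling, 1 model of 3 group means with 6 residual degrees of freedom, the robust quasi-likelihood F-test and Benjamini-Hochberg adjustment over all tested genes at 0.05. Standard errors come from the F statistic, and ratios of pooled counts have exact 95% intervals that cover counting error only. DESeq2 1.42.0 and voom of limma 3.58.1 were alternatives. The fit was also run on simulated counts with few genes changed in a single group. In these data 44.7% of genes were called for wild-type IL-23 over wild-type GFP, so that run does not check the test in this setting. The members and lists were chosen with earlier results of these data known. Named list genes are at most 4 per list with the smallest adjusted p in wild-type IL-23 over wild-type GFP, at most 4 for Mdl-1-/- IL-23 over wild-type IL-23, and defining markers near 0; Other genes were named after their values were seen, where a count of 5 or fewer called for it or they check the tissue, the knockout or the counting. Promoter windows are from RefSeq tables on GRCm38.p6. The authors' own edgeR comparisons were not used here.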

Additional observations from a re-analysis of the deposited data

How the results depend on the processing

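No listed mast cell gene that was called changed sign in any alternative. Kit, not called, ran from -0.23 to 0.51 for Mdl-1-/- IL-23 over wild-type GFP, and Gata2, tested in some alternatives, from -0.04 to 0.96 for Mdl-1-/- IL-23 over wild-type IL-23. With a minimum count of 30, only 1 of the 10 genes (Hdc) was tested. It was called for Mdl-1-/- IL-23 over wild-type IL-23 and for wild-type IL-23 over wild-type GFP. With only the 2 groups compared in the fit, Hdc alone was tested in the first of these, and it was called. Cpa3, Mcpt4, Cma1 and Kit did not pass the filter there without the wild-type GFP libraries, so that fit says nothing of their calls. Over fits that leave out 1 library each, genes called for Mdl-1-/- IL-23 over wild-type IL-23 numbered 1128 to 2802 (2439 with all libraries; lowest without wild-type IL-23 library 2), listed mast cell genes 1 to 4, pathway list genes 4 to 15 (13) and marker list genes 3 to 11 (7). For Mdl-1-/- IL-23 over wild-type GFP they numbered 1340 to 2580 genes (2359) and 9 to 18 marker list genes (14). For wild-type IL-23 over wild-type GFP, listed mast cell genes called numbered 4 to 6, since Ms4a2 and Gata2 passed the filter in some fits. Marker list genes called for Mdl-1-/- IL-23 over wild-type IL-23 were 13 with DESeq2, 11 with voom and 12 with no count filter, and for Mdl-1-/- IL-23 over wild-type GFP 23 with voom. Upper-quartile scaling moved the share of calls that are higher to 53.2% (42.9% with TMM) for Mdl-1-/- IL-23 over wild-type IL-23, to 38.9% (51.3%) for wild-type IL-23 over wild-type GFP, with a median shift of -0.15 on the log2 scale, and to 43.7% (59.4%) for Mdl-1-/- IL-23 over wild-type GFP. With the replicate number as a block 2800, 6257 and 2682 genes were called. Calls were lost there for Hdc (edgeR adjusted p = 0.074) and Clec4d (0.0742) in the first of these comparisons, for Clec4d (0.053) in the second and for Fabp4 (0.0655) and Kdr (0.0588) in the third. Deviations of libraries of the same number had correlations of -0.0863 to 0.230, and those of different numbers -0.214 to 0.175. The labels state no pairing, and these values do not decide whether the numbers pair the samples. Hdc also lost its call in the first with no count filter. Depth limits differences of Tpsab1 (0 to 3 counts a library), of Fcer1a (0 to 2) and, between Mdl-1-/- IL-23 and wild-type IL-23 ears, of Gata2 (0 to 5).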
